A study of Mus musculus with 10 samples.

Results

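The laminin chain genes Lama1, Lama2, Lama3, Lama4, Lama5, Lamb1, Lamb2, Lamb3 and Lamc1 were followed in cholangiocytes of the normal mouse, the epithelium of the bile ducts. These 9 genes were picked by symbol from the 18407 genes of the deposited count table, by a rule that uses no measured value, although earlier results of these data were known when the rule was made. Other laminin chain genes were not analysed here. Poly(A) RNA was sequenced from 10 cultures of the NMC line, all grown for 6 days as 3D double spheroids and given no further treatment. In 5 cultures the cells were embedded in collagen I at 1 mg/mL, and in the other 5 in laminin mixed with collagen I at 3:1 by volume, so that both matrices held collagen I. NMC is a single cell line, and nothing in the labels says how the cultures of a matrix were divided, so the p-values below measure the spread between these libraries, which may be technical. What was measured is RNA made by the cells, and the laminin protein supplied in the matrix was not part of the measurement. In such bulk RNA, fewer cells that make a transcript and less of it per cell cannot be told apart.

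Laminins are secreted glycoproteins of basement membranes, the thin sheets of matrix under epithelia. Each is a heterotrimer of 1 alpha, 1 beta and 1 gamma chain joined by a coiled coil inside the cell, and it takes its name from the numbers of its chains. The alpha chain carries the globular domains at its C-terminal end that bind integrins and dystroglycan, while the short arms of the chains join into a network at the cell surface. The Lama5 product is the main alpha chain of mature epithelial basement membranes, where it is found with the Lamc1 product and with that of Lamb1 (laminin-511) or Lamb2 (laminin-521). The products of Lama3 and Lamb3 belong to the laminin that anchors stratified epithelia through hemidesmosomes. Lama4 is typical of vessel walls (laminin-411), Lama2 of muscle and peripheral nerve, and Lama1 of the early embryo and some epithelia (laminin-111).

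The bases before the transcription start of Lama5, Lamb1 and Lamb2 are shown because these genes, of the chains that were well expressed, had a single RefSeq promoter window. RefSeq on GRCm38.p6 gave a window for 5 of the 9 genes. Those shown end before the first GENCODE exon, which removed the bases nearest the RefSeq start for Lamb1 and Lamb2. The windows compared with them were cut at the same end, so they also lack the bases nearest their starts. Capitals mark the GC box GGGCGG and the CCAAT box CCAAT, searched on both strands.
Lama5, chr2:180225860-180226109, minus strand: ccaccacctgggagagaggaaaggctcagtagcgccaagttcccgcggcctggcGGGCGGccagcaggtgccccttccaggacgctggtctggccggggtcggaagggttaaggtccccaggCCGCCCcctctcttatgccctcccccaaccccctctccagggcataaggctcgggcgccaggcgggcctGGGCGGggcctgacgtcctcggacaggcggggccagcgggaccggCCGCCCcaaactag
Lamb1, chr12:31265043-31265233, plus strand: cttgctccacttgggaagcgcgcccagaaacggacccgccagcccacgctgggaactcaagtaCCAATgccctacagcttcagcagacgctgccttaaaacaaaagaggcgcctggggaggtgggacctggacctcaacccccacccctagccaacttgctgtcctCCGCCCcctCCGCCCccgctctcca
Lamb2, chr9:108479612-108479735, plus strand: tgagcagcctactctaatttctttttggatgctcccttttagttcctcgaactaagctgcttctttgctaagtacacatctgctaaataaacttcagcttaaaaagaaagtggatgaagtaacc
The 250 bases before Lama5 held 4 GC boxes, no CCAAT box and 19 CG pairs, and 32.7% of 32851 mouse windows of that length held a GC box. The 191 bases before Lamb1 held 2 GC boxes, 1 CCAAT box and 10 CG pairs, where 23.1% of windows cut to that length held a GC box and 26.9% a CCAAT box. The 124 bases before Lamb2 held neither motif and 1 CG pair, where 13.3% and 16.7% of windows did. The median window held 6, 4 and 2 CG pairs at these lengths. These matches describe the letters only.

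The labelled cell type was checked against its markers. Of 19 cholangiocyte markers, 13 averaged 1 CPM (counts per 1000000, on library sizes scaled by TMM factors) or more, led by the keratins Krt8, Krt19 and Krt18, and their sum ran from 4489 to 6576 CPM in collagen and from 4659 to 6287 CPM in laminin-rich libraries. Leukocyte markers summed to at most 8.74 CPM in any library. Endothelial marker sums of 331 to 664 CPM in collagen and 536 to 662 CPM in laminin came almost wholly from Flt1, with Cdh5, Kdr, Emcn, Clec4g and Cldn5 at 0 counts in every library. Fibroblast and stellate sums of 600 to 756 and 613 to 755 CPM came mostly from Fbln2, with Lrat and Thy1 at 0 counts. Smooth muscle and pericyte markers summed to 140 to 163 CPM in collagen and 193 to 230 CPM in laminin, led by Cspg4, with Rgs5 at 0 counts, and hepatocyte markers to 89.4 to 138 and 136 to 193 CPM, led by Hnf4a and Alb. The ranges of the smooth muscle sums did not overlap between matrices, and those of the hepatocyte sums overlapped only between 136 and 138 CPM. Their part in the values below was not tested. Total counts ran from 4424725 to 8129979 per library.

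The cells made RNA for 1 abundant alpha chain, 3 beta chains led by Lamb2, and the gamma chain. Per kilobase of longest transcript (CPM per kb), Lamc1 stood at 60.5 ± 10.9, Lama5 at 57.5 ± 11.3 and Lamb2 at 55.2 ± 6.90 (SD over all 10 libraries), ahead of 88.0%, 87.3% and 86.6% of the 10781 tested genes with a known length. These 3 levels overlapped and differed by less than the spread between libraries: Lamc1 was above Lama5 in 8 of 10 libraries and Lama5 above Lamb2 in 6 of 10. Lamb1 followed at 20.1 ± 6.74 CPM per kb, below Lamb2 in 10 of 10 libraries and with no overlap of their ranges. Lamb3 stood at 10.2 ± 3.43 CPM per kb, below Lamb1 in 9 of 10 libraries, with overlapping ranges. The remaining alpha chains were at 0.150 ± 0.112 (Lama4), 0.0802 ± 0.0264 (Lama3), 0.00156 ± 0.00492 (Lama2) and 0 (Lama1) CPM per kb.

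**Figure D1:**
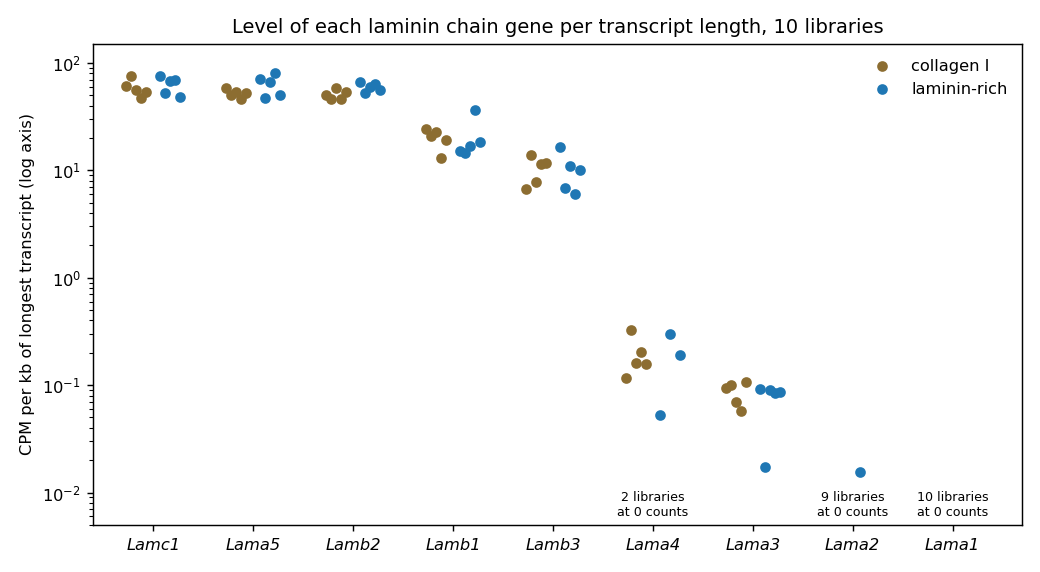
Level of the 9 laminin chain genes in each library, in CPM per kb of longest transcript on a log axis, with brown points for collagen I and blue points for the laminin-rich matrix. Lamc1, Lama5 and Lamb2 lie together at 45.7 to 80.2, Lamb1 and Lamb3 lie below them, and Lama4, Lama3 and Lama2 lie more than 10-fold below Lamb3. Libraries with 0 counts cannot be drawn on a log axis and are counted at the foot.

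The order at the top depended on which length was used. The longest Lamc1 transcript has 7622 nt, of which 4821 nt are coding, while that of Lama5 has 11388 nt with 11154 nt coding. Per kilobase of coding sequence, Lamc1 stood at 95.6 ± 17.2 and was above Lama5, at 58.7 ± 11.5, in 10 of 10 libraries. Lamb2, at 57.6 ± 7.19, was still level with Lama5, and Lamb1 and Lamb3 stood at 21.1 ± 7.08 and 14.2 ± 4.76. The 3 beta chains together came to 1.44 ± 0.199 times the level of Lamc1 per transcript length and to 0.988 ± 0.133 times per coding length, and the alpha chains to 0.961 ± 0.125 and 0.621 ± 0.0805 times. Which transcripts the cells use was not measured.

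Lama5, the epithelial alpha chain, held 99.6% ± 0.235 of the alpha chain RNA per transcript length (SD, n = 10). It lies on chromosome 2 from 180176373 to 180225859 on the minus strand in GRCm38, and its longest transcript has 79 exons, the most among the 9 genes. In collagen the 5 libraries stood at 658, 576, 607, 530 and 596 CPM in the order of their replicate numbers. In the laminin-rich matrix they stood at 800, 533, 762, 913 and 571 CPM. Replicates 1, 3 and 4 of laminin lay above every collagen library, while replicates 2 and 5 lay within the collagen range. The mean was 593 ± 46.7 CPM in collagen and 716 ± 160 CPM in laminin (SD, n = 5 per group), a fold of 1.21 with a 95% interval of 0.97 to 1.50. It did not pass edgeR's quasi-likelihood test (adjusted p = 0.495 after Benjamini-Hochberg adjustment over all 10789 genes tested).

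None of the other alpha chains had enough counts for the test. Lama4, the vessel-wall chain, had 5, 11, 8, 6 and 6 counts in the collagen libraries and 0, 0, 2, 12 and 5 in the laminin libraries. Laminin replicates 1 to 3 thus lay below every collagen library in raw counts and replicate 4 above every one. In CPM, replicates 1 to 3 were again below every collagen library, but replicate 4, at 1.80 CPM, was below collagen replicate 2, at 1.96 CPM. Summed over a group this was 36 counts or 1.13 CPM of collagen library totals (exact 95% Poisson interval 0.790 to 1.56) and 19 counts or 0.631 CPM of laminin totals (0.380 to 0.985), intervals that overlap and cover counting error only. Lama3 had 3 to 7 counts in each collagen library and 1 to 7 in each laminin library, with laminin replicate 2 the lowest at 1. Lama2 had a single count, in laminin replicate 4. Lama1 had 0 counts in all 10 libraries, which allows a level of up to 0.0484 CPM over the summed total. A fit without the filter on low counts gave Lama4 a log2 difference, laminin minus collagen, of -0.84 (SE 0.69, edgeR adjusted p = 0.654) and Lama3 one of -0.20 (SE 0.41, adjusted p = 0.877). Exons of Lama3 and Lama2 overlap those of Gm29200 and Gm48084 on the opposite strand, so their few counts are uncertain if strand was not used in counting.

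Among the beta chains, Lamb2 varied least between libraries. It lies on chromosome 9 from 108479736 to 108490530 and encodes the beta chain of laminin-521. The collagen libraries stood at 283, 257, 331, 262 and 301 CPM and the laminin libraries at 373, 294, 336, 357 and 314 CPM. Laminin replicates 1, 3 and 4 lay above every collagen library, and replicates 2 and 5 lay within the collagen range, the same split as for Lama5. The means were 287 ± 30.1 and 335 ± 32.0 CPM (SD, n = 5 per group), a fold of 1.17 with a 95% interval of 0.999 to 1.37 (edgeR adjusted p = 0.432).

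Lamb1, on chromosome 12 from 31265234 to 31329644, encodes the beta chain of laminin-511. The collagen libraries stood at 141, 121, 131, 75.2 and 110 CPM. The laminin libraries stood at 87.4, 83.1, 97.1, 209 and 105 CPM, so that replicate 4 alone lay above the collagen range, at 2.24 times the mean of the other laminin libraries (93.2 CPM, with a range of 83.1 to 105 CPM). The group means were equal within their spread, 116 ± 25.5 and 116 ± 52.6 CPM (fold 1.01, 95% interval 0.691 to 1.46, edgeR adjusted p = 0.994). Without laminin replicate 4 the log2 difference was -0.33 in place of 0.01 and still did not pass (adjusted p = 0.497).

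Lamb3, on chromosome 1 from 193207699 to 193343878, was the least abundant beta chain. The collagen libraries stood at 32.3, 67.4, 37.8, 56.3 and 57.5 CPM and the laminin libraries at 80.3, 33.0, 53.5, 29.3 and 49.3 CPM. Laminin replicate 1 was the highest of the 10 libraries and laminin replicate 4 the lowest. The means were 50.3 ± 14.7 and 49.1 ± 20.2 CPM, a fold of 0.981 (95% interval 0.651 to 1.48, edgeR adjusted p = 0.980). Lamb3 was 151 times as abundant as Lama3 per transcript length on average over the libraries, although both chains belong to the same hemidesmosomal laminin. Single libraries ran from 70.8 to 394 times, the highest being laminin replicate 2, where Lama3 had 1 count. Per coding length the average was 199 times, with a range of 93.1 to 519.

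The make-up of the beta chain RNA differed between matrices by about the spread between libraries or less. Lamb2 held 62.7% ± 3.66 of it in collagen and 66.7% ± 4.11 in laminin, Lamb1 24.5% ± 4.36 and 22.0% ± 7.18, and Lamb3 12.9% ± 4.23 and 11.3% ± 4.13 (SD, n = 5 per group, with no test because the shares are scores over the chains). Laminin replicate 4 had the largest Lamb1 share (34.2%) and the smallest Lamb3 share (5.70%) of all libraries. Laminin replicate 1 had the smallest Lamb1 share (15.4%), with a Lamb3 share of 16.8%. Lamb2 was the largest part in all 10 libraries, from 56.8% in collagen replicate 2 to 71.2% in laminin replicate 2.

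**Figure D2:**
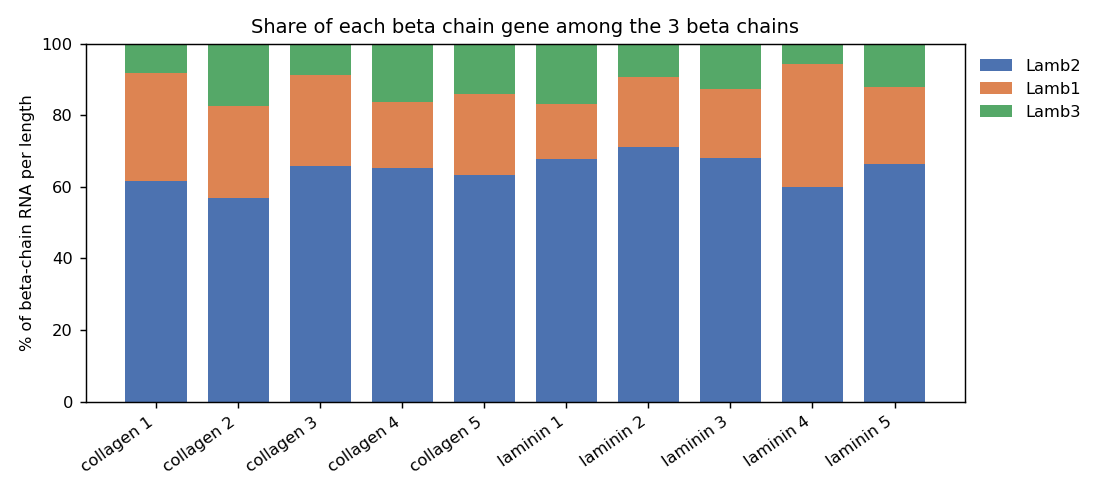
Share of Lamb2, Lamb1 and Lamb3 in the beta chain RNA of each library, in percent of CPM per kb of longest transcript summed over the 3 genes. Lamb2 holds 56.8% to 71.2% in every library, and laminin replicate 4 stands out with Lamb1 at 34.2%.

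Lamc1, on the minus strand of chromosome 1 from 153218922 to 153332786, encodes the gamma chain common to laminin-111, laminin-411, laminin-511 and laminin-521. The collagen libraries stood at 467, 576, 423, 357 and 410 CPM and the laminin libraries at 576, 397, 513, 528 and 364 CPM. The ranges of the groups nearly coincided, and both had a highest library at 576 CPM. The means were 447 ± 82.2 and 475 ± 90.6 CPM, a fold of 1.06 (95% interval 0.843 to 1.34, edgeR adjusted p = 0.866).

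**Figure D3:**
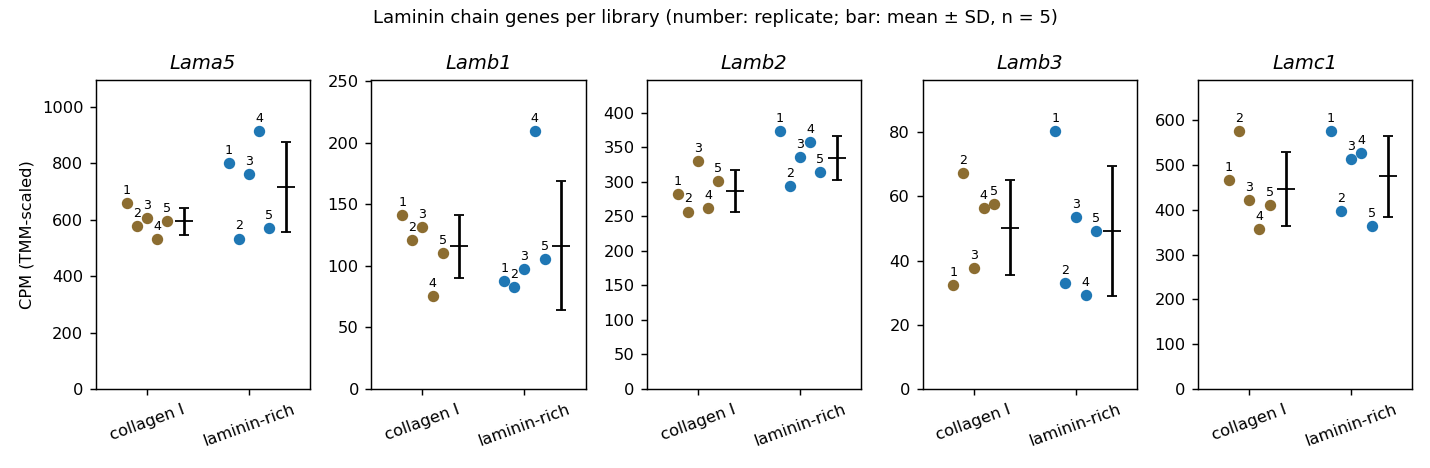
CPM of the 5 tested laminin chain genes in each library, with the replicate number beside each point and the mean ± SD of each group (n = 5) at its right. The ranges of the matrices overlap for every gene, and laminin replicate 4 stands apart for Lamb1 at 209 CPM.

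In all, 0 of the 5 tested laminin chains passed, against 16 of all 10789 genes, or 0.148%, with 15 higher in laminin (0.139%) and 1 lower (0.00927%). At an unadjusted p under 0.05 the count was also 0 of 5, against 11.7% of all genes, and DESeq2 called 0 of 5, against 1.94%. The group ranges overlapped for all 5, as they did for all but 3.24% of genes. The median log2 difference of the 5 was 0.09, against 0.01 over all genes tested, with 4 of 5 above 0 against 5580 of 10789. The 95% intervals bound the differences at these sample numbers: a 2-fold change in either direction lies outside the interval of each of the 5 chains and the upper bounds ran from 1.34 for Lamc1 to 1.50 for Lama5. A p above the threshold does not show that the levels were equal.

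The libraries differed in how counts depended on transcript length and GC content, and the longest transcripts of the laminin genes, at 4867 to 11388 nt, exceed the median of 3486 nt over the genes tested. At Lama5 the trend fitted in each library without regard to matrix ran from -0.52 in collagen replicate 4 to 0.44 in laminin replicate 4 on the log2 scale, and averaged -0.18 ± 0.22 in collagen and 0.18 ± 0.22 in laminin. The measured log2 levels of Lama5 relative to their mean were -0.28 and 0.50 in those libraries. Other libraries followed the trend less: Lama5 stood at -0.27 in laminin replicate 2 and 0.31 in laminin replicate 1, where the trend was 0.15 and 0.03. At Lamb2 the trend ran from -0.25 in collagen replicate 4 to 0.21 in laminin replicate 4. Its levels ran from -0.26 in collagen replicate 2 to 0.28 in laminin replicate 1. Lamb1 in laminin replicate 4 stood 0.91 above its mean where the trend was 0.17, and Lamb3 in the same library stood at -0.68 where the trend was 0.15. With this trend removed through an offset, which would also take out a matrix effect tied to length or GC content, the log2 difference was -0.11 for Lama5 (SE 0.12), 0.02 for Lamb2 (SE 0.07), -0.13 for Lamc1 (SE 0.11), -0.14 for Lamb1 (SE 0.21) and -0.17 for Lamb3 (SE 0.27). The sign of Lama5, Lamb1 and Lamc1 thus turned, and the edgeR adjusted p ran from 0.611 to 0.926.

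**Figure D4:**
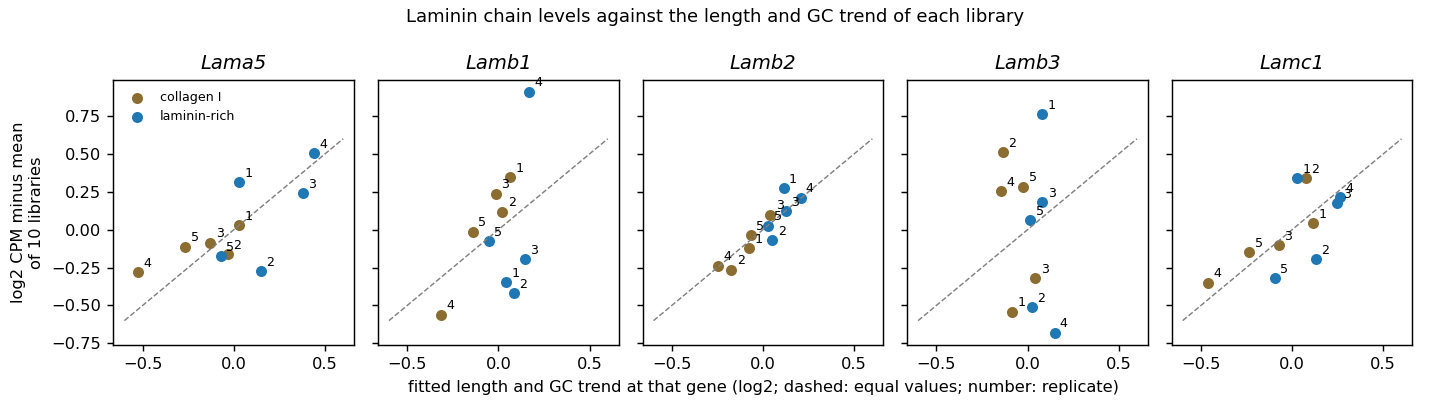
Log2 CPM of each tested laminin chain relative to its mean over 10 libraries (vertical axis) against the length and GC trend fitted for that gene in the same library (horizontal axis, log2), with replicate numbers and a dashed line where they are equal. Lamb2 lies near the line in every library. Lamb1 in laminin replicate 4 and Lamb3 in laminin replicate 1 and collagen replicate 2 lie far above it. The point furthest from the line lies below it: Lamb3 in laminin replicate 4, at -0.68 where the trend is 0.15.

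The code letter in the library descriptions, whose meaning is not stated, divided the collagen libraries into B (replicates 1 to 3) and D (4 and 5) and the laminin libraries into E (1 to 3) and F (4 and 5). Because no letter is found in both matrices, the effects of letter and matrix cannot be told apart. Lama5 averaged 614 CPM in B and 563 CPM in D, then 698 CPM in E and 742 CPM in F. Lamb1 averaged 131 CPM in B and 92.7 CPM in D, with no overlap, and 89.2 CPM in E and 157 CPM in F, again with no overlap (83.1 to 97.1 against 105 to 209 CPM). Lamc1 averaged 489 CPM in B and 383 CPM in D, also with no overlap, and 495 CPM in E and 446 CPM in F. Lamb3 averaged 45.8 CPM in B and 56.9 CPM in D, and 55.6 CPM in E and 39.3 CPM in F, with overlap in both matrices. Lamb2 averaged 290 and 281 CPM in B and D, and 334 and 336 CPM in E and F, with overlap in both matrices. For Lamb1, Lamb3 and Lamc1 the gap between B and D was thus larger than that between the matrices. For Lama5 and Lamb2 it was smaller. Lama4, with few counts, ran from 0 to 0.319 CPM in E and from 1.15 to 1.80 CPM in F, without overlap, while B and D overlapped. With 3 libraries against 2, ranges can fail to overlap by chance. The share of all genes without overlap between letters was not counted, and no test was made between letters.

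Laminins act with other basement membrane proteins, and 32 of these were listed. In this list 20 genes were tested, of which 0 passed over all genes, and at an unadjusted p under 0.05 there were 3 higher and 1 lower, against 6.70% and 4.95% of all genes. These were Col4a3 (2.99 ± 1.51 to 5.56 ± 1.97 CPM), Col4a4 (3.94 ± 1.71 to 8.22 ± 3.14 CPM) and Fras1 (1.41 ± 0.360 to 2.99 ± 2.71 CPM) on the higher side and Loxl2 on the lower, named after their values were seen. The median log2 difference of the 20 was 0.08, and -0.14 once the trend was taken out. Hspg2, which encodes the heparan sulfate proteoglycan perlecan, stood at 362, 379, 289, 348 and 360 CPM in collagen and at 411, 322, 512, 615 and 350 CPM in laminin. Laminin replicates 1, 3 and 4 were again the libraries above the collagen range. The log2 difference was 0.35 (SE 0.17, edgeR adjusted p = 0.444), and it was -0.09 with the trend removed. The network collagens Col4a1 and Col4a2 gave 0.06 (SE 0.17) and 0.08 (SE 0.15), agrin (Agrn) 0.16 (SE 0.14) and the endostatin precursor Col18a1 0.08 (SE 0.16). Fbln2, which encodes a fibulin, gave 0.05 (SE 0.10) and Sparc, a collagen-binding glycoprotein, -0.22 (SE 0.21).

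Loxl2, a secreted lysyl oxidase that crosslinks collagen IV, was the partner gene with the smallest p. The collagen libraries stood at 318, 297, 323, 339 and 327 CPM and the laminin libraries at 268, 193, 116, 187 and 199 CPM. Every laminin library lay below every collagen library, in a comparison where 3.24% of all genes had ranges that did not overlap. The means were 321 ± 15.3 and 193 ± 54.1 CPM (SD, n = 5 per group), a log2 difference of -0.74 (SE 0.17), which did not pass edgeR over all genes (adjusted p = 0.109). It passed in DESeq2 (adjusted p = 0.00697), with 1 surrogate variable (0.0217), with the trend taken out (0.0430), without laminin replicate 1 (0.0308) and without the collagen libraries of letter B (0.0334). These fits called 209, 463, 102, 64 and 2083 genes of the whole table in that order, against 16 in the fit as reported. Over the 24 alternatives the adjusted p of Loxl2 ran from 0.00697 to 0.271.

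Nid1 and Nid2, the nidogens that link the laminin gamma chain to the collagen IV network, were near 0 beside the abundant Lamc1, and were named after their values were seen. Nid1 had 7 counts summed over the collagen libraries and 1 over the laminin libraries, and Nid2 had 4 and 3. Over all libraries this was 0.129 CPM of library totals for Nid1 (exact 95% Poisson interval 0.0557 to 0.254) and 0.113 CPM for Nid2 (0.0454 to 0.233), against 461 ± 83.0 CPM for Lamc1. Neither had enough counts for the test.

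None of the receptors that bind the alpha chains passed in the fit as reported. The integrin genes Itga3, Itga6, Itgb1 and Itgb4 gave log2 differences of 0.01 (SE 0.11), -0.16 (SE 0.22), 0.01 (SE 0.10) and 0.05 (SE 0.12), and Dag1, which encodes dystroglycan, 0.17 (SE 0.11), with edgeR adjusted p from 0.614 to 0.989. The fit without the collagen libraries of letter B was the only alternative in which 1 of these 5 passed: Itga6 gave 0.44 (adjusted p = 0.0478). That fit had 2 collagen libraries left and called 2083 genes of the whole table, against 16 in the fit as reported. Of 12 listed laminin receptors, all tested, 0 passed, and the median was 0.01. The receptor nearest to the threshold was Itga7, the integrin alpha chain typical of muscle, named after its values were seen. It stood at 5.08, 5.89, 9.72, 7.32 and 6.89 CPM in collagen and at 11.5, 12.5, 16.1, 17.2 and 20.9 CPM in laminin. Every laminin library lay above every collagen library, with means of 6.98 ± 1.76 and 15.7 ± 3.81 CPM (SD, n = 5 per group), a log2 difference of 1.15 (SE 0.22, edgeR adjusted p = 0.0584). It passed in 5 of the 24 alternatives, among them DESeq2 (adjusted p = 0.000392) and the fit without laminin replicate 1 (0.0308), and its adjusted p ran from 0.000392 to 0.208. These were the alternatives in which Loxl2 passed, and each called more genes of the whole table than the fit as reported. Of 14 tested dystroglycan glycosylation genes, which build the sugar chain that laminin binds, 0 passed (median 0.03). The count was also 0 of 22 for genes of secretory export of large matrix proteins (median -0.02) and 0 of 7 for laminin-cleaving proteases (median 0.09). Over these 4 lists, 2 genes had an unadjusted p under 0.05 in the higher direction, Itga7 and the protease gene Adamts1, the latter also named after its values were seen (edgeR adjusted p = 0.279).

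**Figure D5:**
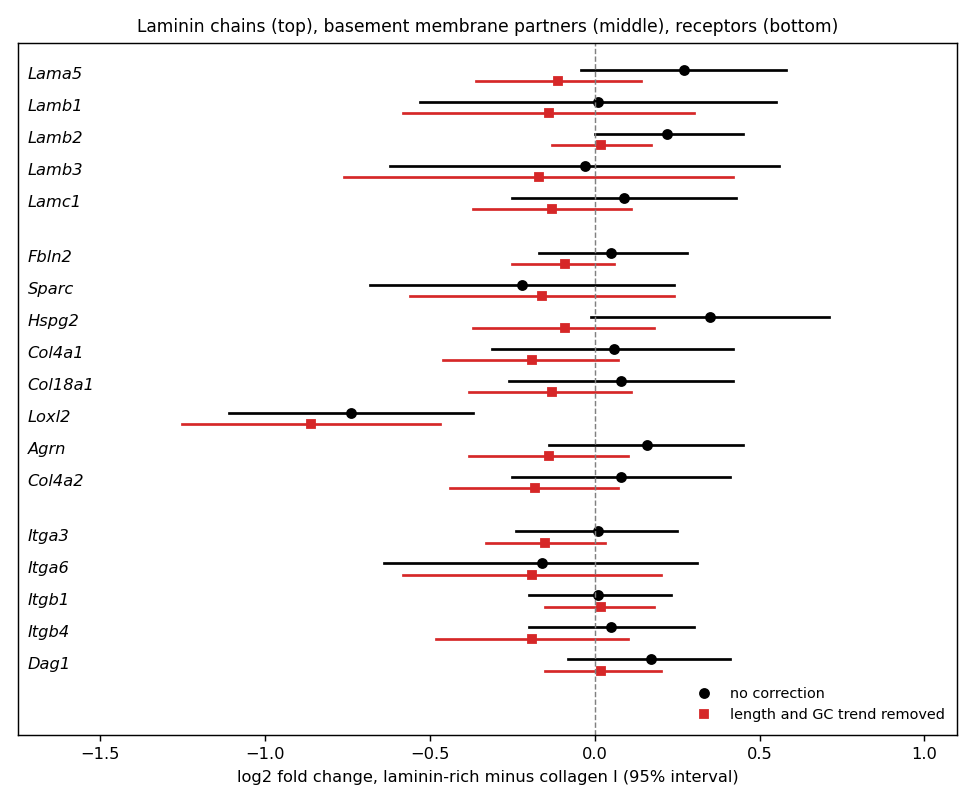
Log2 fold change, laminin-rich matrix minus collagen I, with its 95% interval, for the 5 tested laminin chains, 8 basement membrane partners and 5 receptors, in black as fitted and in red once the trend was taken out. Loxl2, at -0.74 and -0.86, is the gene whose intervals lie wholly below 0. The intervals of the laminin chains all include 0.

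The genes whose pattern over the 10 libraries was most like that of Lamc1 were Usp46, a deubiquitinating enzyme, Steap2, a metalloreductase, and Smarca1, a chromatin remodelling ATPase. Likeness was the root-mean-square difference after each gene's log2 CPM was centred and scaled to unit SD, where 0 means identical patterns, and it was 0.317, 0.356 and 0.373 for these genes against a median of 1.34 over all tested genes. For Lama5 they were Slc5a3, the myo-inositol transporter (0.283), Fgfr2, a fibroblast growth factor receptor (0.346), and Klhdc7a (0.420), against a median of 1.31. These genes are the closest by choice, so each chain is given with its place in the order of the 10789 genes tested. Among the chains, Lama5 was the closest to Lamc1 (0.735, place 571), then Lamb1 (1.059, place 3357), Lamb2 (1.077, place 3491) and Lamb3 (1.165, place 4094). Closest to Lama5 was Lamb2 (0.629, place 87), then Lamc1 (0.735, place 261), Lamb1 (0.909, place 1007) and Lamb3 (1.401, place 6400). All genes share the libraries' depth and length trend, which enters these values.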

How the data were processed

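RNA of 10 libraries, 5 per matrix, was analysed. Per the labels' protocols, each was made from 30 ng of RNA with a stranded mRNA kit. The authors deposited 1 table of read counts per gene symbol, which are whole numbers with no normalization. The submitters' processing notes name the build GRCm38 (mm10) and DESeq2, while for the aligner, the counter, its strand setting and the gene models nothing is given in the sources used here.

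Of 18407 genes, filterByExpr at its defaults kept 10789, including 5 of the 9 laminin chains. Matrices were compared with edgeR 4.0.16 in R 4.3.3 by a two-sided quasi-likelihood F test on TMM-scaled libraries with only the matrix in the model. P-values were adjusted by Benjamini-Hochberg over all genes tested, at a threshold of 0.05. An SE is the size of a log2 difference over the root of its F value, and 95% intervals use the degrees of freedom of that test. Log2 CPM used a prior count of 2. A library with no count of a gene allows 3 counts, or 0.369 to 0.678 CPM, for counting error only. No 2 libraries agreed within sampling noise.

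Positions and lengths were taken from GENCODE M21 (GRCm38), which matched 18338 symbols. The trend on length and GC content used splines with 5 degrees of freedom each, fitted to log2 CPM deviations in each library. Named were all 9 chains, the 8 partners with the highest mean, 5 receptors, called list members (none) and the 3 genes most like Lamc1 and Lama5. The members and lists were chosen with earlier results of these data known. Alternatives were DESeq2 1.42.0, limma-voom (3.58.1), other scalings and filters, a replicate block, 1 surrogate variable (sva 3.50.0), the length and GC offset, and each library or code letter left out. The steps were tested on simulated data.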

Additional observations from a re-analysis of the deposited data

Results flagged for a closer look

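Dixon's criterion at 95% was applied to 41 groups of 5 libraries, those of the 9 laminin chains and 13 other named genes, and it picked out 3 values, where about 5% of groups, or 2.1, would be picked by chance. Lamb1 was at 209 CPM in laminin replicate 4, while the remaining laminin libraries lay between 83.1 and 105 CPM. The 2 further values come from a single count each. Lama3 was at 0.181 CPM in laminin replicate 2, while the remaining laminin libraries lay between 0.898 and 0.979 CPM. Lama2 was at 0.150 CPM in laminin replicate 4 and at 0 in every other laminin library.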

How the results depend on the processing

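No laminin chain passed under any of the 24 alternatives, and Lamb2 was above 0 in all of them (0.02 to 0.28, log2). The other chains' differences were small enough for their signs to turn. Once the trend on length and GC content was removed, the log2 differences that turned were Lama5 -0.11, Lamb1 -0.14, Lamc1 -0.13, Fbln2 -0.09, Hspg2 -0.09, Col4a1 -0.19, Col18a1 -0.13, Agrn -0.14, Col4a2 -0.18, Itga3 -0.15 and Itgb4 -0.19, and with the replicate block as well they were -0.12, -0.22, -0.14, -0.10, -0.09, -0.22, -0.14, -0.15, -0.20, -0.15 and -0.19 in that order. Without letter B, Itga3 was -0.06, Itga6 0.44 and Itgb4 -0.13. Without letter D, Lamb1 was -0.17, Lamb3 0.11, Lamc1 -0.04, Col4a1 -0.04 and Itgb1 -0.07. Without letter E, Lamc1 was -0.02, Agrn -0.07, Itgb1 -0.09 and Itgb4 -0.02. Without letter F, Lamb1 was -0.39, Lamb3 0.13, Fbln2 -0.02, Col4a1 -0.13, Col18a1 -0.09, Col4a2 -0.07 and Itga3 -0.04. With 1 surrogate variable, Lamb1 was -0.10, Lamb3 0.04 and Itgb1 -0.01. Lamb1 was -0.05 in limma-voom and -0.07 with the replicate block alone. Lamb1, Itga3 and Itgb1 were -0.00, -0.01 and -0.00 in DESeq2 and with its size factors, -0.02, -0.02 and -0.01 without a filter, and -0.01 each at 1 CPM in 5 libraries. With library totals only, Itga3 and Itgb1 were -0.01. With single libraries left out, Lama5 ran from 0.15 to 0.34, Lamb1 from -0.33 to 0.10, Lamb2 from 0.17 to 0.28, Lamb3 from -0.28 to 0.09, Lamc1 from 0.01 to 0.18, Fbln2 from -0.00 to 0.10, Col4a1 from -0.13 to 0.14, Col18a1 from -0.06 to 0.19, Col4a2 from -0.07 to 0.16, Itga3 from -0.06 to 0.06, Itgb1 from -0.03 to 0.03 and Itgb4 from -0.01 to 0.10.

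The count of basement membrane partners called, 0 as fitted, was 1 in DESeq2, 2 with 1 surrogate variable, 1 with the length and GC trend removed, 3 without letter B, and 0 to 1 with single libraries left out (1 without laminin replicate 1, Loxl2). The 16 genes called in the whole table became 209 in DESeq2, 29 without a filter, 463 with 1 surrogate variable, 102 with the trend removed, 0 with the replicate block, 2083 without letter B, 5 without letter D, 1 without letter E and 5 without letter F, and ran from 0 to 64 with single libraries left out (leaving out collagen 3, collagen 5 or laminin 2 gave 0, collagen 2 gave 2, laminin 3 or 5 gave 5, laminin 4 gave 36 and laminin 1 gave 64). The cause was not tested. Replicate numbers did not pair the libraries: the correlation of same-numbered libraries ran from -0.327 to 0.483 across genes, and 1 of 5 collagen libraries was closest to its own number. Added to the fit as reported, the block changed no call of a laminin chain or named gene. Added to the fit with the trend removed, it moved the edgeR adjusted p of Loxl2 from 0.0430 to 0.0981 and that of Itga7 from 0.0181 to 0.0718, so that neither passed. The shares of the alpha and beta chains moved by less than the SD between libraries with coding length, with library totals and without any single library. Lama1, Lama2, Lama3 and Lama4 are limited by depth.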
